A study of Mus musculus with 12 samples.

Results

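The genes described here are 8 receptors and enzymes of Gq and second messenger signalling. They are the receptors F2r, Htr2a, P2ry1 and Adra1b, the phospholipase Plce1, the adenylyl cyclase Adcy4, the phosphodiesterase Pde1c and the calcium pump Atp2a3. They were chosen by gene name, for their known part in calcium or cyclic nucleotide signalling and leaving muscle genes aside, among the 1017 genes that appear in at least 1 of the deposited tables. The hippocampus table lists 652 genes and 7 of the members, the cortex table lists 561 genes and 3 of the members, and Adcy4 and Atp2a3 are among the 196 genes listed in both. RNA sequencing covered hippocampus and cortex of adult C57BL/6 mice that were either wild type (WT) or homozygous for a deletion in kcnma1 (kcnma1-/-, BK KO), with 3 libraries for each genotype and tissue and 12 in all. The deletion was made with CRISPR/Cas9 and shifts the reading frame of the gene for the BK channel, a potassium channel opened by calcium and voltage, and the mice came from crosses of heterozygous animals. It is carried in the germline and is therefore not limited to a cell type, and no group received a treatment. The study's methods give male BK KO mice of 10 to 12 weeks for its experiments, behaviour and recordings among them, and for the sequenced mice the sources used here say only adult. The study's methods describe taking both cortex and hippocampus from the sampled mice. The labels do not say which hippocampus and cortex libraries came from the same mouse.

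Each library has 1 value per gene, taken here as FPKM, which counts the sequenced fragments of a gene for each unit of transcript length and of library size. How deeply each library was sequenced is unknown. The tables list genes that the authors had called different between BK KO and WT mice in the same libraries, so the members had to differ to be listed, and counts of members are given as a description beside the same count over all listed genes. Differences were fitted with limma on log2(FPKM + 1), 3 BK KO against 3 WT libraries within a tissue. A gene is called past the threshold at an unadjusted p under 0.05 and a log2 fold change beyond 0.58 in either direction. Adding 1 to the FPKM understates the change of genes near 1 FPKM, where most members lie, so the ratio of the mean FPKM is given as well.

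Gq-coupled receptors sit in the cell membrane and, once bound by their ligand, activate phospholipase C. This enzyme splits a membrane lipid into inositol trisphosphate, which releases calcium from the endoplasmic reticulum, and diacylglycerol, which activates protein kinase C. Calcium pumps of the reticulum return the calcium to the store, and adenylyl cyclases and phosphodiesterases make and break down cyclic AMP, the other main second messenger. In brain such receptors for serotonin, noradrenaline, nucleotides and proteases tune the excitability of neurons and act in glia and in vessels. The BK channel is itself opened by a rise in calcium inside the cell.

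The targeted gene Kcnma1 had FPKM of 11.3, 10.6 and 9.67 in WT hippocampus libraries 1 to 3, against 2.54, 2.82 and 2.81 in those of BK KO mice. In cortex the WT libraries had 12, 9.82 and 11.8 FPKM, against 3.09, 2.97 and 2.76 in BK KO mice. All BK KO libraries were below all WT libraries of their tissue, as their labels say. A pair of libraries stood apart by marker genes of other tissues, in hippocampus by 1 gene only. Gh, the growth hormone gene of the pituitary and the listed 1 of 8 pituitary markers, was at 57.5 FPKM in BK KO hippocampus library 3, in BK KO libraries 1 and 2 at 0.120 and 0.184 FPKM, and listed at 0 in the 3 WT libraries. In cortex 14 of 17 skeletal muscle markers were listed, with Acta1 the most abundant, and their summed FPKM was 95.0, 37.5 and 31.0 in WT libraries 1 to 3, against 12, 10.3 and 9.62 in BK KO libraries. Of these 14 genes, 3 were at 0 in at least 1 library. Where a call of a named gene changed without BK KO hippocampus library 3 or WT cortex library 1, this is therefore stated. The muscle marker sums of WT cortex libraries 2 and 3 were also above those of all BK KO libraries. Leaving out WT library 1 thus does not remove the muscle marker difference between the genotypes. Of the muscle markers, Myl1 lost its call without WT cortex library 1, its log2 fold change going from -0.68 to -0.37. Myh4 came past the threshold without this library, going from -0.54 to -0.81. The tissue labels could not be checked against a full set of regional markers, since genes outside the called lists are not analysed here.

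In hippocampus F2r rose 2.16-fold and Plce1 2.37-fold in BK KO mice, and in cortex Adra1b rose 1.87-fold, by the ratio of mean FPKM. Htr2a, P2ry1 and Pde1c had higher means in BK KO hippocampus, and Adcy4 and Atp2a3 had lower means in BK KO mice in both tissues, without passing the threshold. In hippocampus 5 of the 7 members were higher and 2 lower in BK KO mice, where 41.7% of the 652 listed genes were higher. Past the threshold were 2 of the 7, both higher, where 42.6% of all listed genes were past it. The 3 BK KO values lay all above or all below the 3 WT values in 6 of the 7, where 79.9% of the listed genes were so separated. With 0.1 in place of 1 added to the FPKM, all 7 were past the threshold, as were 84.0% of all listed ones. In cortex 1 of the 3 members was higher, where 29.2% of the 561 listed genes were, and 1 was past the threshold, where 30.8% were. The groups were separated in 2 of the 3 cortex members and in 80.6% of the listed genes, and with 0.1 added 3 of 3 members and 72.7% of all listed genes passed. Since listing itself required a difference in these libraries, nothing is read from these shares.

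**Figure D1:**
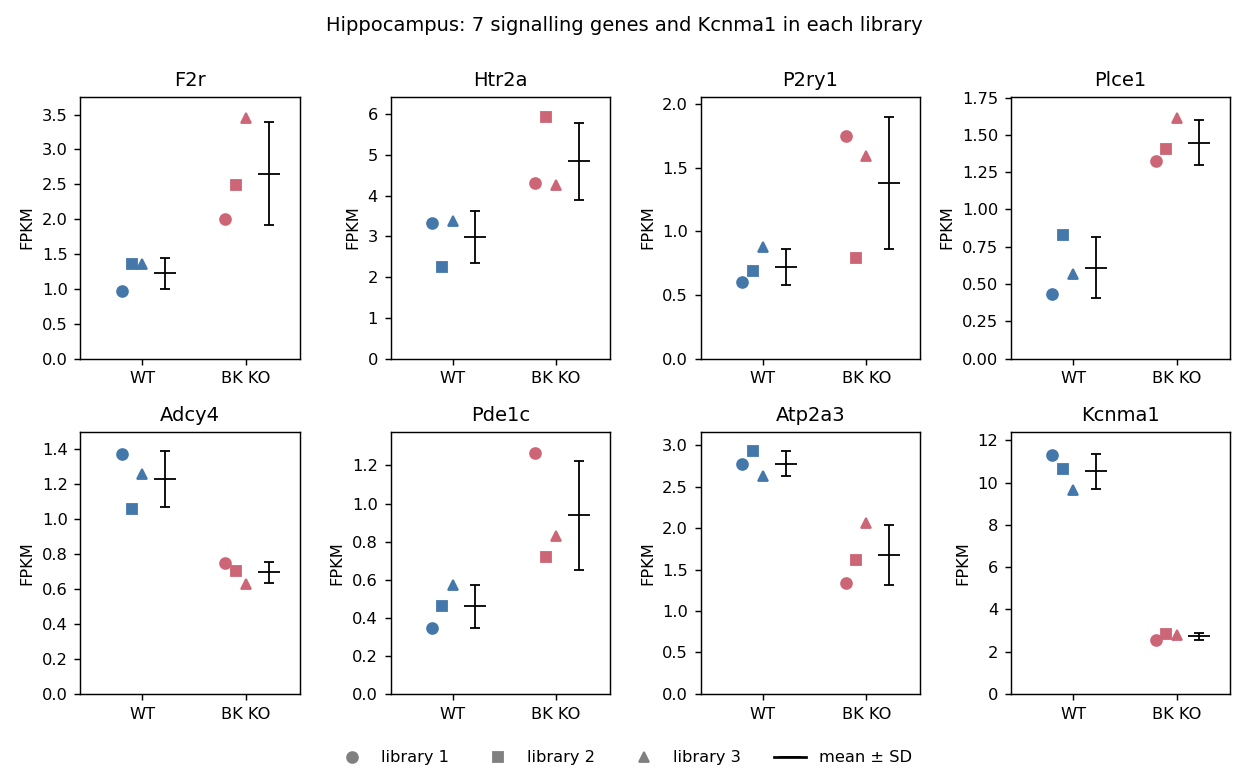
FPKM (vertical axes, each starting at 0) of the 7 members listed for hippocampus and of Kcnma1 in each WT (blue) and BK KO (red) library, with symbols for libraries 1 to 3 and the mean ± SD of 3 libraries beside them. F2r, Htr2a, Plce1 and Pde1c lie higher in all BK KO libraries, Adcy4, Atp2a3 and Kcnma1 lie lower, and for P2ry1 BK KO library 2 falls within the WT range.

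F2r (GeneID 14062) encodes the protease-activated receptor that thrombin cleaves and thereby switches on. WT hippocampus libraries 1 to 3 had 0.968, 1.35 and 1.35 FPKM, against 2.00, 2.50 and 3.45 FPKM in BK KO libraries 1 to 3. Every BK KO library was above every WT library, with library 3 the highest. The mean rose from 1.22 ± 0.222 to 2.65 ± 0.740 FPKM (SD, n = 3 per group), which is 2.16-fold. On the log2 scale the change was 0.70 (SE 0.17, 95% interval 0.30 to 1.1), with a limma p of 0.00452. Without BK KO library 3, the library with Gh, it was 0.55 with a limma p of 0.011, under the fold threshold. Each library is RNA of the whole tissue, so more or fewer cells of a type and more or less RNA per cell cannot be told apart for F2r or any gene that follows.

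Htr2a (GeneID 15558) encodes the serotonin 2A receptor, through which serotonin excites cortical and hippocampal neurons. Its FPKM was 3.33, 2.24 and 3.37 in WT hippocampus, against 4.32, 5.94 and 4.27 in BK KO hippocampus. The groups did not overlap, and BK KO library 2 was above the other two. The means were 2.98 ± 0.638 and 4.84 ± 0.950 FPKM (SD, n = 3 per group), a ratio of 1.63. The log2 fold change of 0.56 (SE 0.17, 95% interval 0.15 to 0.96, limma p 0.0149) stood just under the threshold. It was past it without WT library 1 (0.62), WT library 3 (0.63), BK KO library 1 (0.62) or BK KO library 3 (0.62), and 0.41 and 0.42 without WT library 2 or BK KO library 2.

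P2ry1 (GeneID 18441) encodes a receptor for ADP, found among other cells on astrocytes and platelets. Its FPKM was 0.600, 0.687 and 0.873 in WT hippocampus and 1.75, 0.789 and 1.59 in BK KO hippocampus. BK KO libraries 1 and 3 were above all WT libraries, while BK KO library 2 was below WT library 3. The means were 0.720 ± 0.139 and 1.38 ± 0.516 FPKM (SD, n = 3 per group), a ratio of 1.91, with overlapping groups. limma put the log2 fold change at 0.45 (SE 0.18, 95% interval 0.02 to 0.87), with p 0.0439 by limma. Without BK KO library 2 it was 0.64 and past the threshold. In the 5 other fits that left out 1 library it was 0.33 to 0.51, with a limma p of 0.0529 to 0.136, so the limma p under 0.05 was lost in each of them.

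Adra1b (GeneID 11548), the alpha-1B adrenergic receptor for noradrenaline, was the member with the highest FPKM and is listed for cortex. WT cortex libraries 1 to 3 had 6.50, 8.27 and 6.32 FPKM, against 12.1, 17.6 and 9.72 FPKM in BK KO cortex. The groups did not overlap, and BK KO library 2 was the highest. Its mean rose from 7.03 ± 1.08 to 13.2 ± 4.04 FPKM (SD, n = 3 per group). This was a log2 fold change of 0.79 (SE 0.22, 95% interval 0.25 to 1.32), with a limma p of 0.0111. It was 0.57 without BK KO library 2, just under the threshold, and 0.74 without WT library 1, the library with the highest muscle marker sum. The hippocampus values of Adra1b, and the cortex values of F2r, Htr2a, P2ry1, Plce1 and Pde1c, are not analysed here, so whether these genes differed between the tissues in their response was not tested.

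**Figure D2:**
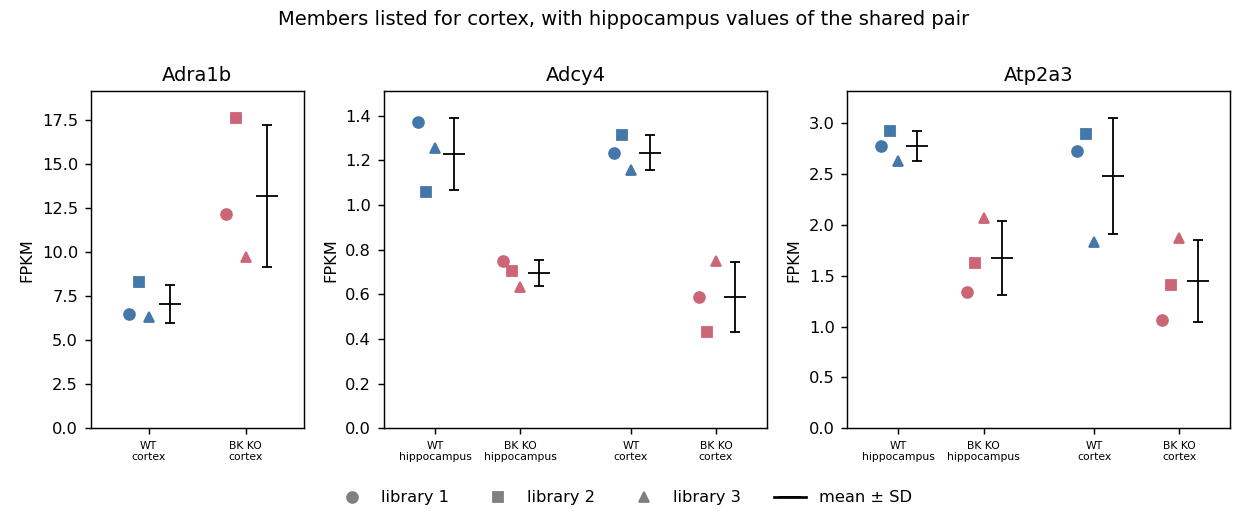
FPKM (vertical axes, each starting at 0) of Adra1b in cortex and of Adcy4 and Atp2a3 in hippocampus and cortex, by library, with the mean ± SD of 3 libraries beside the points. Adra1b is higher in all 3 BK KO cortex libraries, Adcy4 is lower in all BK KO libraries of both tissues, and Atp2a3 overlaps in cortex, where WT library 3 lies beside BK KO library 3.

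Genes that act with these receptors were counted over 8 lists of Gq-coupled receptors, their ligands, G proteins and RGS proteins, phospholipases C, calcium channels and pumps, cyclases, phosphodiesterases, and kinases and calcium sensors. Of 51 Gq-coupled receptors, 7 were listed in hippocampus, 7 had a higher mean in BK KO mice, where 41.7% of all listed genes did, and 2 were past the threshold, F2r and Tacr1, where 42.6% of all listed genes were. Since listing required a difference, nothing is read from these counts or from those of the lists that follow. Tacr1, the receptor for substance P, had 0.162, 0.233 and 1.76 FPKM in the WT libraries, against 2.91, 1.85 and 1.65 FPKM in those of BK KO mice. WT library 3 lay among the BK KO values, and the log2 fold change of 0.97 (SE 0.35) stayed past the threshold when 1 library was left out in 2 of 6 cases. The remaining receptors were Oxtr for oxytocin, at 1.34 ± 0.466 and 2.32 ± 0.673 FPKM (SD, n = 3) in WT and BK KO mice, Tacr3 for neurokinin B, at 0.433 ± 0.182 and 0.829 ± 0.219 FPKM (SD, n = 3), and the calcium-sensing receptor Casr, at 0.0250 ± 0.0167 and 0.206 ± 0.134 FPKM (SD, n = 3). In cortex 3 of the 51 were listed, with Adra1b higher and the endothelin receptors lower without passing the threshold. Ednra had a log2 fold change of -0.26 (SE 0.14) and Ednrb of -0.44 (SE 0.18), and the groups of both overlapped.

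Of 20 ligands and precursors of such receptors, 2 were listed in hippocampus and 0 in cortex. Tac1, the precursor of substance P, had 3.97, 3.29 and 26.6 FPKM in WT hippocampus, against 36.4, 18.9 and 28.2 FPKM in BK KO hippocampus. As for its receptor Tacr1, WT library 3 was far above the other WT libraries and within the BK KO range. Its log2 fold change of 1.73 (SE 0.69) stayed past the threshold in 1 of 6 such cases, and not without BK KO library 3. Trh, the precursor of thyrotropin-releasing hormone, rose from 1.96 ± 1.55 to 7.69 ± 3.79 FPKM (SD, n = 3) with separated groups, a log2 fold change of 1.62 (SE 0.49) that stayed past it in 5 of 6 cases. Of 32 G protein alpha subunits and RGS proteins, which speed the switching off of G proteins, 2 were listed in hippocampus and 0 in cortex. Rgs11 fell from 10.6 ± 1.70 to 5.25 ± 1.60 FPKM (SD, n = 3), and Rgs5, also a pericyte marker, had WT and BK KO means of 15.4 ± 1.28 and 10.2 ± 2.25 FPKM (SD, n = 3) and did not pass the threshold (log2 fold change -0.57, SE 0.17).

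Plce1 (GeneID 74055) encodes phospholipase C epsilon, which is driven by small GTPases as well as by G proteins. Its FPKM was 0.433, 0.830 and 0.567 in WT hippocampus and 1.32, 1.41 and 1.61 in BK KO hippocampus. All BK KO libraries were well above all WT libraries, and the BK KO libraries were close together. The mean rose from 0.610 ± 0.202 to 1.45 ± 0.148 FPKM (SD, n = 3 per group), which is 2.37-fold, the highest ratio of mean FPKM among the members. Its log2 fold change was 0.61 (SE 0.13, 95% interval 0.31 to 0.91, limma p 0.00193), and 1.16 with 0.1 added to the FPKM in place of 1. On the first scale it was under the fold threshold without WT library 1 (0.53) or BK KO library 3 (0.56). In hippocampus Plce1 was the only 1 of 13 phospholipase C genes listed. In cortex Plch2 and Plcz1 were listed, and Plch2, a neuronal phospholipase C, fell from 11.4 ± 0.361 to 6.94 ± 0.364 FPKM (SD, n = 3), and passed the threshold whichever of the 6 libraries was left out. Plcz1, the phospholipase of sperm, was at 0.107 FPKM in WT and 0.0318 FPKM in BK KO cortex on average, with separated groups and a ratio of 3.35. Its log2 fold change was -0.10 (SE 0.07), and -0.63 and past the threshold with 0.1 added.

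Adcy4 (GeneID 104110) encodes an adenylyl cyclase, which makes cyclic AMP. In hippocampus its FPKM was 1.37, 1.06 and 1.26 in WT libraries 1 to 3, against 0.750, 0.704 and 0.631 in BK KO libraries 1 to 3. In cortex it was 1.23, 1.31 and 1.16, against 0.587, 0.429 and 0.747, in the same order. In both tissues all BK KO libraries lay below all WT libraries. The mean went from 1.23 ± 0.160 to 0.695 ± 0.0601 FPKM (SD, n = 3) in hippocampus, with a WT to BK KO ratio of 1.77, and from 1.23 ± 0.0795 to 0.588 ± 0.159 FPKM (SD, n = 3) in cortex, with a ratio of 2.10. The log2 fold changes were -0.39 (SE 0.10, 95% interval -0.64 to -0.15, limma p 0.00710) and -0.50 (SE 0.10, 95% interval -0.74 to -0.26, limma p 0.00224), both short of 0.58 on this scale. With 0.1 in place of 1 added to the FPKM they were -0.74 and -0.98 and past the threshold.

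Adcy4 is known to be strong in endothelial cells, and the listed markers of these cells had lower means in BK KO mice in both tissues. Of all listed genes, 380 of 652 in hippocampus and 395 of 561 in cortex were lower as well. Of 18 endothelial markers 3 were listed in each table, Tek, Tie1 and Emcn, of which Tie1 was the most abundant and none was at 0. In hippocampus the groups of all 3 were separated, beside 79.9% of all listed genes. Tie1 and Emcn were past the threshold, beside 42.6% of all listed genes, but neither was past it without BK KO library 3. In cortex 0 of the 3 were past it, where 30.8% of all listed genes were. The groups of Emcn overlapped there, while 80.6% of all listed genes were separated. Since listing required a difference, nothing is read from these counts. Their summed FPKM in hippocampus was 10.4, 10.6 and 7.67 in WT and 5.83, 5.62 and 4.73 in BK KO libraries. In cortex the sum was 9.05, 10.3 and 7.41 in WT and 5.71, 4.89 and 5.85 in BK KO libraries. The WT to BK KO ratio of the mean sums was 1.77 in hippocampus and 1.63 in cortex. Of 10 markers of pericytes and vascular smooth muscle, 5 were listed in hippocampus, with Vtn the most abundant and none at 0, and 0 in cortex. Their summed FPKM was 64.6, 60.7 and 62.2 in WT and 45.6, 37.1 and 39.4 in BK KO hippocampus. The part of these vascular genes in the Adcy4 values was not tested.

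**Figure D3:**
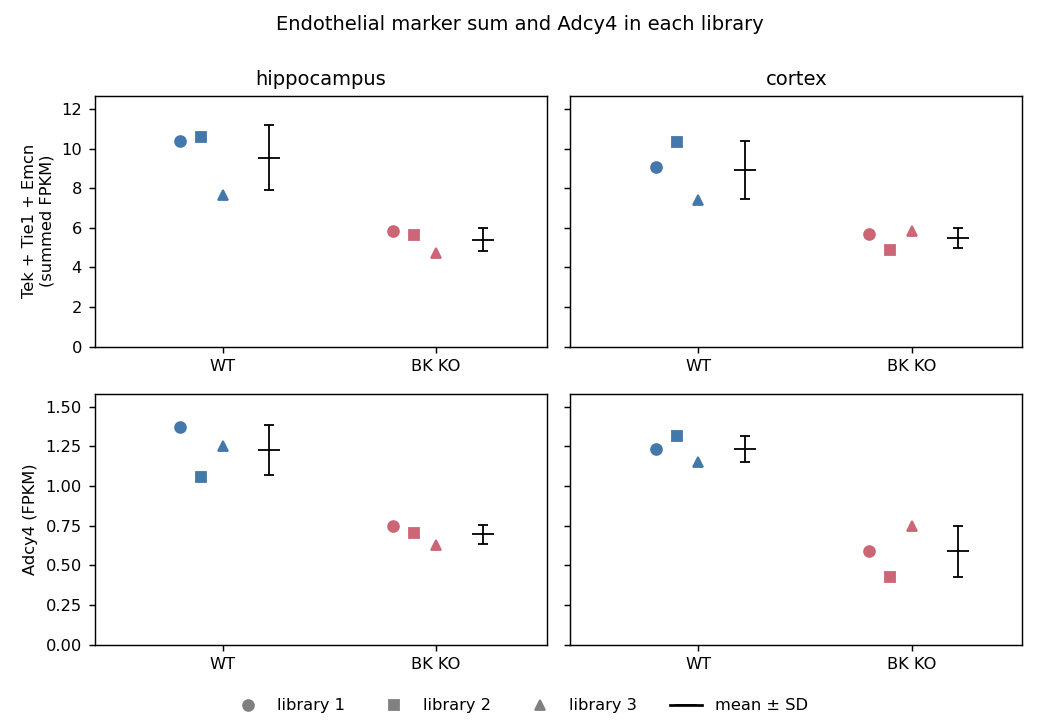
Summed FPKM of the endothelial markers Tek, Tie1 and Emcn (upper panels) and FPKM of Adcy4 (lower panels) in each WT (blue) and BK KO (red) library of hippocampus and cortex, with the mean ± SD of 3 libraries. Both measures lie lower in all BK KO libraries than in the WT libraries of the same tissue. The sum holds only the 3 of 18 endothelial markers that were listed. Listing of these markers and of Adcy4 required a difference in the same libraries, so nothing is read from the separation.

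Of 23 cyclase genes, Gucy2c was the other listed gene in hippocampus and Adcy10 in cortex. Gucy2c, a receptor guanylyl cyclase best known from the intestine, was at 0.0225 ± 0.00367 and 0.151 ± 0.0404 FPKM (SD, n = 3) in WT and BK KO mice, and Adcy10, the soluble adenylyl cyclase, had 0.00535 to 0.0316 FPKM over the 6 cortex libraries, with means of 0.0147 in WT and 0.0142 in BK KO mice, while the authors' base means were 34.2 and 13.8, so the deposited measures do not agree for this gene. Pde1c (GeneID 18575) encodes a phosphodiesterase that calcium and calmodulin activate and that breaks down both cyclic AMP and cyclic GMP. Its FPKM was 0.346, 0.460 and 0.572 in WT hippocampus and 1.26, 0.722 and 0.827 in BK KO hippocampus. The groups did not overlap, and BK KO library 1 was the highest. The means were 0.459 ± 0.113 and 0.938 ± 0.288 FPKM (SD, n = 3 per group), a ratio of 2.04. On the log2 scale the difference was 0.40 (SE 0.14, 95% interval 0.07 to 0.73, limma p 0.0229), not past the threshold in any of the fits that left out 1 library (limma p 0.0180 to 0.0747), and 0.88 and past it with 0.1 added to the FPKM. Of 24 phosphodiesterases, Pde3a and Pde4c were listed besides Pde1c in hippocampus, and Pde4c in cortex, none of them past the threshold. Pde3a had a BK KO to WT ratio of mean FPKM of 1.63 and a log2 fold change of 0.18 (SE 0.10). Pde4c had WT to BK KO ratios of 2.00 in hippocampus and 2.09 in cortex, with log2 fold changes of -0.30 (SE 0.12) in each, and -0.85 in each and past the threshold with 0.1 added. Its groups overlapped in cortex.

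Atp2a3 (GeneID 53313) encodes a calcium pump of the endoplasmic reticulum of the SERCA family. WT hippocampus libraries 1 to 3 had 2.78, 2.93 and 2.63 FPKM, against 1.34, 1.62 and 2.07 FPKM in BK KO hippocampus. In cortex the WT libraries had 2.72, 2.90 and 1.83 FPKM, against 1.06, 1.41 and 1.87 FPKM in BK KO mice. The hippocampus groups did not overlap, whereas in cortex WT library 3 was just below BK KO library 3. The means were 2.78 ± 0.151 and 1.68 ± 0.366 FPKM (SD, n = 3) in hippocampus and 2.48 ± 0.573 and 1.45 ± 0.404 FPKM (SD, n = 3) in cortex, WT to BK KO ratios of 1.66 and 1.72. The log2 fold change was -0.51 in each tissue, with 95% intervals of -0.81 to -0.20 (limma p 0.00561) in hippocampus and -0.94 to -0.08 (limma p 0.0268) in cortex, and it was not past the threshold. In hippocampus it was past the threshold without BK KO library 3 (-0.61), and -0.41 to -0.53 with a limma p of 0.0129 to 0.0196 without each other library. In cortex it was past the threshold without WT library 3 (-0.65) or BK KO library 3 (-0.63). Without each of the other 4 cortex libraries the limma p was 0.0673 to 0.0870, with -0.45 and 0.0806 without WT library 1, and with the replicate number as a block it was 0.0636, so the limma p under 0.05 in cortex was lost in these 5 fits. With 0.1 added in place of 1 the log2 fold changes were -0.72 and -0.75, both past it.

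Of 24 calcium release channels, pumps and exchangers, Atp2a3 was the 1 listed in hippocampus, and 5 were listed in cortex. Atp2a1, the pump of fast skeletal muscle, fell from 3.74 ± 2.52 to 0.178 ± 0.158 FPKM (SD, n = 3), and Ryr1, the release channel of skeletal muscle, fell from 1.56 ± 0.240 to 0.672 ± 0.199 FPKM (SD, n = 3). Both are among the skeletal muscle markers, whose sum was highest in WT library 1. There Atp2a1 was also highest, at 6.65 FPKM, and Ryr1, at 1.29 FPKM, was the lowest of the WT libraries. Without WT library 1 the WT mean of Atp2a1 was 2.29 FPKM, and its log2 fold change went from -1.90 to -1.49, still past the threshold. The part of muscle RNA in these values was not tested. Ryr3 had a WT to BK KO ratio of 1.51 and a log2 fold change of -0.33 (SE 0.08), and Atp2c2, a calcium pump of the Golgi, rose from 0.313 ± 0.0824 to 1.5 ± 0.894 FPKM (SD, n = 3). Of 42 kinases and calcium sensors, 3 were listed in hippocampus and 0 in cortex. The 3 were higher and past the threshold, beside 41.7% of all listed genes higher and 42.6% past it, and 3 genes are too few to describe the list. Dgkb, a kinase that removes diacylglycerol, rose from 15.1 ± 3.02 to 26.9 ± 1.93 FPKM (SD, n = 3), the calmodulin-dependent kinase Camk2d from 5.98 ± 1.73 to 10.7 ± 3.09 FPKM (SD, n = 3) and the neuronal nitric oxide synthase Nos1 from 5.23 ± 1.13 to 8.81 ± 1.90 FPKM (SD, n = 3). With 1 library left out they passed the threshold in 6, 2 and 4 of 6 cases, Camk2d not without BK KO library 3.

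Over all 8 lists, 21 of 229 genes were listed in hippocampus, 16 higher and 5 lower in BK KO mice, with 8 past the threshold upward and 1 downward. Of all 652 listed genes 272 were higher, and 135 were past the threshold upward and 143 downward, which is 42.6% together, so 9 of 21 is near the share over all listed genes. Their median log2 fold change was 0.45, where that of all 652 listed genes was -0.27. Without the members, 14 of 221 genes were listed, 11 higher and 3 lower, with a median of 0.43. In cortex 13 of the 229 were listed, 2 higher and 11 lower, with 2 past the threshold upward and 3 downward, where of all 561 listed genes 164 were higher, 61 past upward and 112 downward (30.8% together). The median was -0.33, and that of all 561 listed genes was also -0.33. Without the members 10 were listed in cortex, 1 higher and 9 lower. The lists were compared by these counts and medians alone, and a difference between the tissues was not tested. Listing required a difference, and the lists were chosen with earlier results known, so nothing is read from these counts or medians.

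**Figure D4:**
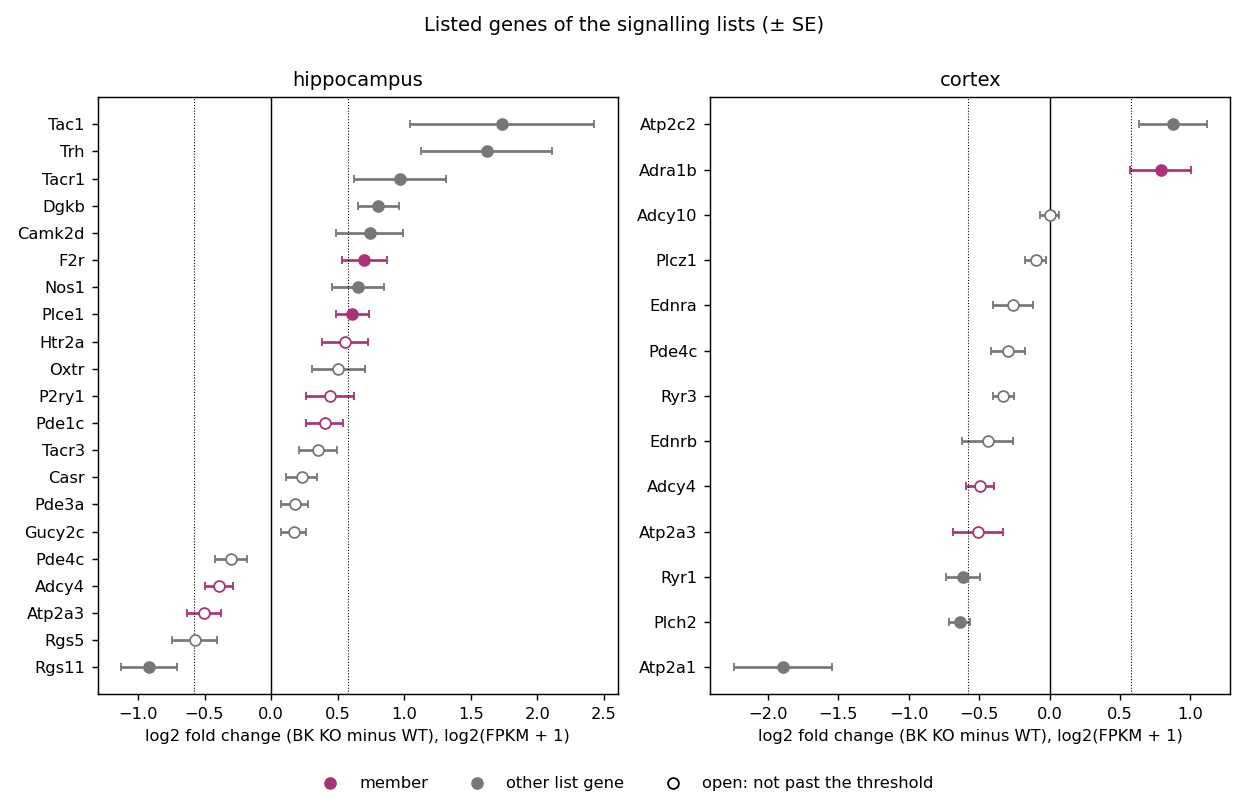
log2 fold change (BK KO minus WT, on log2(FPKM + 1)) with its SE for every listed gene of the 8 signalling lists in hippocampus (left) and cortex (right), members in purple, filled where past the threshold, with dotted lines at 0.58 and -0.58. In hippocampus 16 of 21 genes lie to the right of 0, where 272 of all 652 listed genes were higher. In cortex 11 of 13 lie to the left, where 395 of all 561 listed genes were lower. Since listing required a difference, nothing is read from these counts.

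Adcy4 and Atp2a3 are the members whose response can be compared between the tissues. Taken as the hippocampus minus the cortex log2 fold change, the difference was 0.10 (SE 0.14, 95% interval -0.21 to 0.42, limma p 0.479) for Adcy4 and 0.003 (SE 0.22, 95% interval -0.49 to 0.49, limma p 0.989) for Atp2a3, with an adjusted limma p of 0.998 for both over the 196 shared genes. The intervals are wide beside the log2 fold changes themselves, and being listed in both tables favours like changes, so this does not show that the tissues respond alike. Of the 196 genes, 0 had an unadjusted limma p under 0.05 in this comparison, which is 0%, and 0 an adjusted one. The fit took the 12 libraries as independent, though the study's methods take both tissues from the sampled mice. With same-numbered libraries of a genotype taken as a block across tissues, 4 had an unadjusted and 0 an adjusted limma p under 0.05.

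By FPKM, which is scaled to transcript length, the members in WT hippocampus ran from Htr2a and Atp2a3 near 3 FPKM, over Adcy4 and F2r, to P2ry1, Plce1 and Pde1c under 1 FPKM. The ranges of the 3 libraries overlapped between neighbours in this order, except between Atp2a3 and Adcy4 and between F2r and P2ry1. In BK KO hippocampus the order was Htr2a, F2r, Atp2a3, Plce1, P2ry1, Pde1c and Adcy4, and neighbours overlapped except Htr2a and F2r. Adcy4 had the third highest mean in WT hippocampus and the lowest in BK KO hippocampus. In cortex Adra1b was above Atp2a3 and Atp2a3 above Adcy4 in both genotypes, with no overlap. The authors' base means, read counts divided by size factors, show roughly how many reads stand behind a member. Over all groups they were lowest for Adcy4, at 58 in BK KO cortex and 58.8 in BK KO hippocampus, next for P2ry1, at 79.0 in WT hippocampus, and highest for Adra1b, at 492 in WT and 951 in BK KO cortex. The CV of the members over the 3 libraries of a group went from 5.42% for Atp2a3 in WT hippocampus to 37.4% for P2ry1 in BK KO hippocampus.

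**Figure D5:**
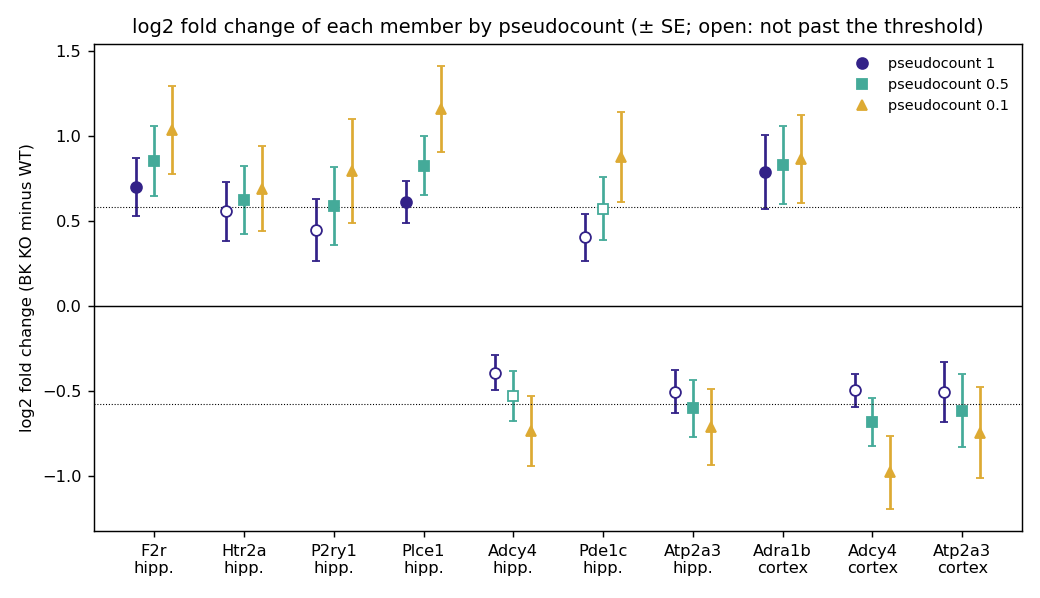
log2 fold change (BK KO minus WT) with its SE for each member and tissue with 1, 0.5 or 0.1 added to the FPKM, filled where past the threshold, with dotted lines at 0.58 and -0.58. With 1 added F2r, Plce1 and Adra1b are past the threshold, and with 0.1 added all members are, each in the same direction as before.

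In the KEGG annotation that comes with the deposited tables, 6 of the 7 hippocampus members carry the calcium signaling pathway, all but P2ry1, as do 13 of the 652 listed genes. The Rap1 pathway is carried by 4 members (F2r, P2ry1, Plce1 and Adcy4) and 12 listed genes, and platelet activation by 3 members (F2r, P2ry1 and Adcy4) and 6 listed genes. In cortex all 3 members carry the calcium term, which 11 listed genes have, and the cGMP-PKG term, which 9 listed genes have, Kcnma1 among them. These terms overlap with the function by which the members were chosen. In the RefSeq gene table Adcy4 and Htr2a are on chromosome 14, as is Kcnma1, Adra1b and Atp2a3 on chromosome 11, and the other members on chromosomes 3, 6, 13 and 19.

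Promoter sequences are shown for the members that passed the threshold and for the pair listed in both tissues, to set side by side the starts of genes that were higher and lower in BK KO mice. RefSeq windows of GRCm38.p6, 250 bases before to 50 after a gene start, matched all 8 members with 11 windows, of which Adra1b has 2 and Pde1c 3. The motifs searched on both strands were the AP-1 site TGANTCA, the CRE core TGACG, the GC box GGGCGG and the TATA box TATAAA, and matches are in capitals. F2r is at chr13:95618417-95618716 on the minus strand, Plce1 at chr19:38523947-38524246 on the plus strand, Adcy4 at chr14:55784023-55784322 on the minus strand and Atp2a3 at chr11:72960919-72961218 on the plus strand. The Adra1b windows are at chr11:43836440-43836739 (a) and chr11:43901188-43901487 (b), both on the minus strand.
F2r: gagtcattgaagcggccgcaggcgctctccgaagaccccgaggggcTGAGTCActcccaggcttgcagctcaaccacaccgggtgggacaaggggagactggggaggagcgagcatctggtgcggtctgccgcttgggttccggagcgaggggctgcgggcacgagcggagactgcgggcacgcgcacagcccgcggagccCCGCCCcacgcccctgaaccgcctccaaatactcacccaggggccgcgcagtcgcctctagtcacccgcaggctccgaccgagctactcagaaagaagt
Adra1b (a): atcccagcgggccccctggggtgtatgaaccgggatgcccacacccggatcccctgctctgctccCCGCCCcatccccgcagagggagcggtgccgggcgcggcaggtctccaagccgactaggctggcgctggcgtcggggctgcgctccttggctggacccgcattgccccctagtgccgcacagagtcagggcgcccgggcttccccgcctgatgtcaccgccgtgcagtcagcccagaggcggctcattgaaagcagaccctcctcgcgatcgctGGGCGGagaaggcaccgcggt
Adra1b (b): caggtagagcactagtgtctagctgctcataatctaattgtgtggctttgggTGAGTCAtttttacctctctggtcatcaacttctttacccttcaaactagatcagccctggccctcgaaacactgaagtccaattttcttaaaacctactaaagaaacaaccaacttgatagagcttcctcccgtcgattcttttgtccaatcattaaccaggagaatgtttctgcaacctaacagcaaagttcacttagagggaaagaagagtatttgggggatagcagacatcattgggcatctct
Plce1: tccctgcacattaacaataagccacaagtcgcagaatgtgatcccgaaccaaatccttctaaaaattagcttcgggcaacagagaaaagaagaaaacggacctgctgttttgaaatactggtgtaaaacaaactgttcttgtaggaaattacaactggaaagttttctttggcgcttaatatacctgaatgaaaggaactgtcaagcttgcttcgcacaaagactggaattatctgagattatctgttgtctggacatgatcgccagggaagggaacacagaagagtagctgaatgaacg
Adcy4: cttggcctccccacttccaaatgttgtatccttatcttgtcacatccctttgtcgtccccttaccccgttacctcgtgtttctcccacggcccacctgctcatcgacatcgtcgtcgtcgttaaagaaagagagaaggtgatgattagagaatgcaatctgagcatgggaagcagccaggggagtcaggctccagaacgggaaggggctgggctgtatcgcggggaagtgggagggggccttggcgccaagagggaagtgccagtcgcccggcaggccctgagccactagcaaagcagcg
Atp2a3: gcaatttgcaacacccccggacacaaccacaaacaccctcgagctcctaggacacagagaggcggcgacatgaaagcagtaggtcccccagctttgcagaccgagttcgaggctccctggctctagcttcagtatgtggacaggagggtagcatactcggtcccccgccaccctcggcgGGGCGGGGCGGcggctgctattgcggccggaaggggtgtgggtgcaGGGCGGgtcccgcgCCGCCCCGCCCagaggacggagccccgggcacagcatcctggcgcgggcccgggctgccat
The AP-1 letters were in 7.81% of the 32851 windows of all genes and in 3 of the 11 member windows, those of F2r, of Adra1b (b) and of Pde1c. In F2r the match began 204 bases and in Adra1b (b) 198 bases before the gene start. GC box letters were in 35.7% of all windows and in 5 member windows, with 5 matches in Atp2a3, of which some overlap, 2 in Adra1b (a) and in P2ry1, and 1 in F2r and in Htr2a. The CRE core (20.8% of all windows) and the TATA letters (13.6%) were in 0 of the 11. The windows of Plce1 and Adcy4 held none of the 4 motifs. The G and C share was 68.7% in F2r, 68.3% in Atp2a3, 58% in Adcy4 and 41.0% in Plce1, beside a median of 52.7% over all windows. A match is a stretch of letters and not a measured binding site, and no match says nothing of the factor.

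Of the other marker lists few genes were listed, so the values below are of 1 or 2 genes a list and do not stand for a cell type. In hippocampus 2 of 12 interneuron markers were listed, Gad2 and Reln, with Gad2 the more abundant and neither at 0, and their summed FPKM was 18.7, 19.3 and 21.4 in WT and 47.0, 51.1 and 39.0 in BK KO libraries. Of 10 oligodendrocyte markers Opalin and Ugt8a were listed, and their sum went from 25.6 ± 8.66 to 12.9 ± 3.05 FPKM (SD, n = 3). Of the astrocyte, microglia, choroid plexus, blood and skeletal muscle markers 0 were listed in hippocampus. In cortex 1 of 12 interneuron markers was listed, Gad2, which rose from 14.3 ± 1.38 to 24.3 ± 7.69 FPKM (SD, n = 3). The oligodendrocyte pair went from 24.7 ± 4.94 to 12.3 ± 3.23 FPKM (SD, n = 3) in sum. Of 10 astrocyte markers Gfap was listed and rose from 38.7 ± 14.1 to 75.2 ± 21.6 FPKM (SD, n = 3), of 12 microglia markers Itgam was at 5.49 ± 1.31 and 3.64 ± 0.929 FPKM (SD, n = 3) with overlapping groups and not past the threshold, and of 13 platelet and red blood cell markers Hba-a2 fell from 22.8 ± 8.67 to 10.5 ± 5.57 FPKM (SD, n = 3). With 1 library left out Gfap and Hba-a2 passed the threshold in 2 and 1 of 6 cases, and neither did without WT library 1, where the WT mean of Hba-a2 was 17.8 FPKM. In hippocampus Opalin was past it, but not without BK KO library 3. Of the pericyte, choroid plexus and pituitary markers 0 were listed in cortex. The part of these cell types in the values of the receptors and enzymes was not tested.

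The listed genes most like each member were taken by Pearson r of log2(FPKM + 1) over the 6 libraries of a tissue, among 438 genes in hippocampus and 343 in cortex with a mean of at least 1 FPKM. The 6 libraries hold both genotypes, so a shared difference between them raises r, and r is given as a description. In hippocampus these genes were Sparc and Arhgap6 for F2r (both r = 0.983), Tmem132e and Scg2 for Htr2a (0.976 and 0.969), Plppr1 and Maff for P2ry1 (0.979 and 0.958), and Lmo3 and Fkbp5 for Plce1 (0.990 and 0.984). For Adcy4 they were Gca and Kcnk4 (0.994 and 0.988), for Pde1c Nt5e and Fam102b (0.993 and 0.978), and for Atp2a3 Flt3 and AU021092 (0.989 and 0.988). Nt5e encodes the enzyme that makes adenosine from AMP outside the cell, and Sparc a secreted matrix protein. In cortex they were Smad9 and Amph for Adra1b (0.993 and 0.982), Plk5 and Rcn1 for Adcy4 (0.982 and 0.973), and Isg15 and Evi2a for Atp2a3 (0.984 and 0.983).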

How the data were processed

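RNA sequencing libraries of hippocampus and cortex of WT and BK KO mice, 3 for each genotype and tissue, were grouped by their labels. The authors made poly-A libraries from 2 ug of total RNA and read paired ends. The submitters' processing notes name mm9, DESeq 1.10.1 and DESeq2, and the aligner, counter and annotation are not given in the sources used here. For each gene and library the authors deposited a number without naming its unit, which its digits and its relation to transcript length give as FPKM. The base mean of a group, also from the authors, is a signal in size-factor-normalized reads averaged over its libraries. The deposited fold change, log2 fold change, p-value, adjusted p-value and direction of the authors' comparison were not used. Of the columns per library, 0 were unmatched. The depth of each library is unknown.

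Each tissue was fitted over all its listed genes with limma 3.58.1 (lmFit, then eBayes without trend or block; R 4.3.3), which was tested on simulated data. The difference between tissues was fitted over the genes in both tables with Benjamini-Hochberg adjustment. Other steps used Python 3.11.15, pandas 2.3.3, numpy 2.4.6, scipy 1.17.1 and matplotlib 3.10.9. The alternatives were other pseudocounts, a filter at a mean of 1 FPKM, limma's trend, a replicate block, a log2 fold change beyond 1, adjusted p-values and leaving out each library.

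Named genes were the 8 members, Kcnma1, every listed gene of a signalling list with at most 8 listed genes (otherwise the 4 with the highest mean FPKM), listed genes of the marker lists, and the 2 genes most like each member. The result of 1 marker list is not reported here. The members and the 8 signalling and 11 marker lists were chosen with earlier results of these data known. Promoters and chromosomes are from RefSeq, matched by symbol.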

Additional observations from a re-analysis of the deposited data

How the results depend on the processing

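In hippocampus the 2 members past the threshold became 7 with a pseudocount of 0.1, 5 with 0.5 and 0 with a log2 fold change beyond 1, and in cortex the 1 member became 3, 3 and 0 under the same settings. A smaller pseudocount raises the log2 fold change of genes near 1 FPKM by its construction. With each library left out in turn the count was 2 to 3 in hippocampus and 0 to 2 in cortex, but the genes changed. Without BK KO hippocampus library 3 the 2 members were Htr2a and Atp2a3 in place of F2r and Plce1, and without WT hippocampus library 1 they were F2r and Htr2a. In cortex the 0 came from leaving out BK KO cortex library 2. The counts were 2 and 1 with a filter at a mean of 1 FPKM, with limma's trend, with adjusted p-values and with the replicate number as a block. The adjustment ran over genes already called in these libraries. It therefore leaves out the genes that were not called and is no stricter check of the members. WT and BK KO libraries of 1 number are different mice, and their deviations from the group means correlated over listed genes at -0.069 to 0.084 in hippocampus and -0.239 to 0.125 in cortex, so the number was not taken to pair them. Over all listed genes, the counts past the threshold of 278 in hippocampus and 173 in cortex became 548 and 408 with a pseudocount of 0.1 and 35 and 25 with a log2 fold change beyond 1. They were 391 and 255 with a pseudocount of 0.5. With each library left out in turn they were 230 to 282 in hippocampus and 135 to 180 in cortex. No member changed direction under any of these settings in which it was fitted. Listing required a difference in the same libraries, so a kept direction is no independent check. The filter at a mean of 1 FPKM left out Adcy4 in both tissues and Pde1c in hippocampus. For Adcy4 and Atp2a3 the difference between tissues was refitted with a pseudocount of 0.1, with the block and without each of the 12 libraries only. In each of these fits 0 of the 2 genes had an adjusted limma p under 0.05. At an unadjusted limma p under 0.05 there were 0 in the fit as reported and 0 with the block. With the block the limma p was 0.502 for Adcy4 and 0.983 for Atp2a3.

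With 3 libraries a group and values near 1 FPKM, a call changes with 1 library or with the pseudocount. The depth of the libraries is unknown, and counting error was not set beside the spread of the libraries. The tables hold called genes only, so the spread limma estimates comes from selected genes, the members could not fail to differ, and genes of the lists that are not listed have no value here. The 8 members were chosen by function among called genes and do not stand for their families. Protein, receptor activity and second messenger levels were not measured by these libraries.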
